A study of Mus musculus with 6 samples.

Results

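A set of genes that store maternal mRNA or hold its translation back was followed in mouse oocytes with and without Uba3. The 10 members are Cpeb1, Dazl, Igf2bp2, Ybx2, Zar1, Zar1l, Ddx6, Eif4enif1, Lsm14b and Patl2, chosen by name. All 10 were found among the 28738 Ensembl genes of the deposited table, and all 10 passed the filter on low values, which kept 17450 genes. RNA of fully-grown oocytes, still arrested with an intact germinal vesicle, came from 3 control pools and 3 pools with a conditional knockout of Uba3 (Uba3 cKO), all on the strain given as C57/Bl6/N;129SvEv7. Each pool held about 150 oocytes and is named here by its group and replicate number. The Cre driver, the deleted part of Uba3 and the age of the mice are not stated in any source used here, nor is it said whether different animals gave each pool, so the tests weigh differences only against the spread between these pools, which may be technical. The UBA3 protein is part of the E1 enzyme for NEDD8, a small modifier related to ubiquitin.

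A fully-grown oocyte is transcriptionally quiet and lives on mRNA made during growth. Much of that mRNA is kept with a short poly(A) tail and is not translated until meiosis resumes. CPEB1 binds the cytoplasmic polyadenylation element, a U-rich motif near the end of the mRNA, represses its targets in the arrested oocyte and promotes their polyadenylation at maturation. DAZL binds other elements of the 3′ untranslated region and promotes translation of its targets during maturation. YBX2, also called MSY2, coats and stabilizes mRNA throughout the cytoplasm. ZAR1 and ZAR1L are zinc-finger proteins that bind maternal mRNA. DDX6 is an RNA helicase that works with LSM14, PATL and eIF4E-transporter proteins, the last of these encoded by Eif4enif1, to keep mRNA out of translation. IGF2BP2 binds and stabilizes mRNA and is needed in the early embryo.

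Because CPEB1 acts through polyadenylation elements, the 3′ untranslated regions of the members' own mRNAs were searched for TTTTAT and TTTTAAT. The search was on the transcript strand, in 1 GENCODE M21 transcript per gene (GRCm38). Matches were found in 7 of the 10. The match nearest to the transcript end is shown for 6 of them in a window of 30 bases, 5′ to 3′, with that match alone in capitals. The Igf2bp2 window also holds its TTTTAT match, left in lower case.
Cpeb1: ttgacttttctTTTTAATttaacgattact
Dazl: aagtcaaaattcTTTTATgtcaccaagtca
Igf2bp2: attttttatttTTTTAATaaaaatgagttg
Ybx2: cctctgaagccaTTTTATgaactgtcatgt
Ddx6: aagccatgttaTTTTAATtggatacttttt
Lsm14b: aatggaaccaaaTTTTATttggcacatgtg

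Dazl had 6 matches in an untranslated region of 1852 bases and Ddx6 had 7 in 4250 bases. Cpeb1 had 4 in 1315 bases, Lsm14b 2 in 1177 bases and Igf2bp2 2 in 1784 bases, while Ybx2 and Eif4enif1 had 1 each. No match was found for Zar1 (146 bases), Patl2 (366 bases) or Zar1l, whose annotated region of 14 bases is too short to be informative. Longer regions hold more matches by length alone. Only the Ybx2 site, which starts 62 bases from the transcript end, lay in the last 100 bases. However, neither AATAAA nor ATTAAA, the common polyadenylation signals, was found near the annotated end of the Ybx2 or Igf2bp2 transcript. The distance of their sites from the true end is therefore uncertain. Among 13313 kept genes with at least 100 bases of 3′ untranslated region, 2604 (19.6%) had a match in that window. Their median log2 difference between Uba3 cKO and control was -0.01, with 180 genes higher and 73 lower by the test used below (6.91% and 2.80%). Over the 10709 genes with no match the median was -0.02, with 5.80% higher and 2.64% lower. The windows with a match were richer in A and T, with a median of 71% against 63%, and the part of base composition in these shares was not tested.

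Values are the authors' normalized log2 values. The depth of each library is unknown. Uba3 stood at 11.37, 11.46 and 11.34 in control pools 1, 2 and 3 and at 10.03, 10.16 and 10.36 in the matching order of Uba3 cKO pools, a log2 difference of -1.21 (SE 0.10). Defining oocyte genes were abundant in every pool, with Bmp15 at 17.05 and Gdf9 at 16.85 in control. Inha, a granulosa gene, stood at 12.42. The log2 summed level of the 12 oocyte markers was 18.74 to 18.92 in control and 18.58 to 18.72 in Uba3 cKO pools. That of the 14 granulosa and cumulus markers was 14.15 to 14.51 and 13.98 to 14.32, and that of the 12 theca, stroma and luteal markers was 11.83 to 12.48 and 11.33 to 11.69. That of the 10 blood and immune markers was 9.20 to 9.46 and 9.08 to 9.21, and that of the 7 endothelial markers was 11.85 to 11.98 and 11.88 to 12.07. A summed level mostly follows its most abundant genes. In the endothelial list these were Pecam1 (11.30 in control) and Tek (10.01). The others stood at 3.99 to 7.52, and the fall of Tie1 (-0.59) does not show in the sum. Of these lists, 2 oocyte markers fell, Bmp15 (-0.25) and Zp2 (-0.30), and none rose. Among granulosa and cumulus markers 2 rose and 2 fell, and 6 theca, stroma and luteal, 2 blood and immune and 1 endothelial marker fell. These are calls of the test used below, by which 5.64% of all kept genes were higher and 2.5% lower. C1qa and Cd3e did not pass the filter on low values, so only 8 of the 10 blood and immune markers were tested. Ptprc, Adgre1, C1qc and Emcn passed it with control means of only 3.79 to 4.05. The part of the marker shifts in the results below was not tested. In pooled samples fewer cells of a type and less RNA per cell cannot be told apart.

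Of the 10 members, 1 passed the test in limma, where a gene is called if its p, adjusted by Benjamini and Hochberg over all kept genes, is under 0.05. Dazl rose, and the other 9 did not pass; 3 of the 10 had an unadjusted p under 0.05, against 22.8% of all kept genes. The calls took in 8.14% of all kept genes, 5.64% in the higher and 2.5% in the lower direction, so 1 call among 10 members is near the background. The median log2 difference of the members was 0.08, against -0.01 over all kept genes, with 6 above 0 and 4 below 0. Differences ran from -0.40 for Zar1l to 0.40 for Dazl. These calls and values describe mRNA only, and protein was not measured.

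**Figure D1:**
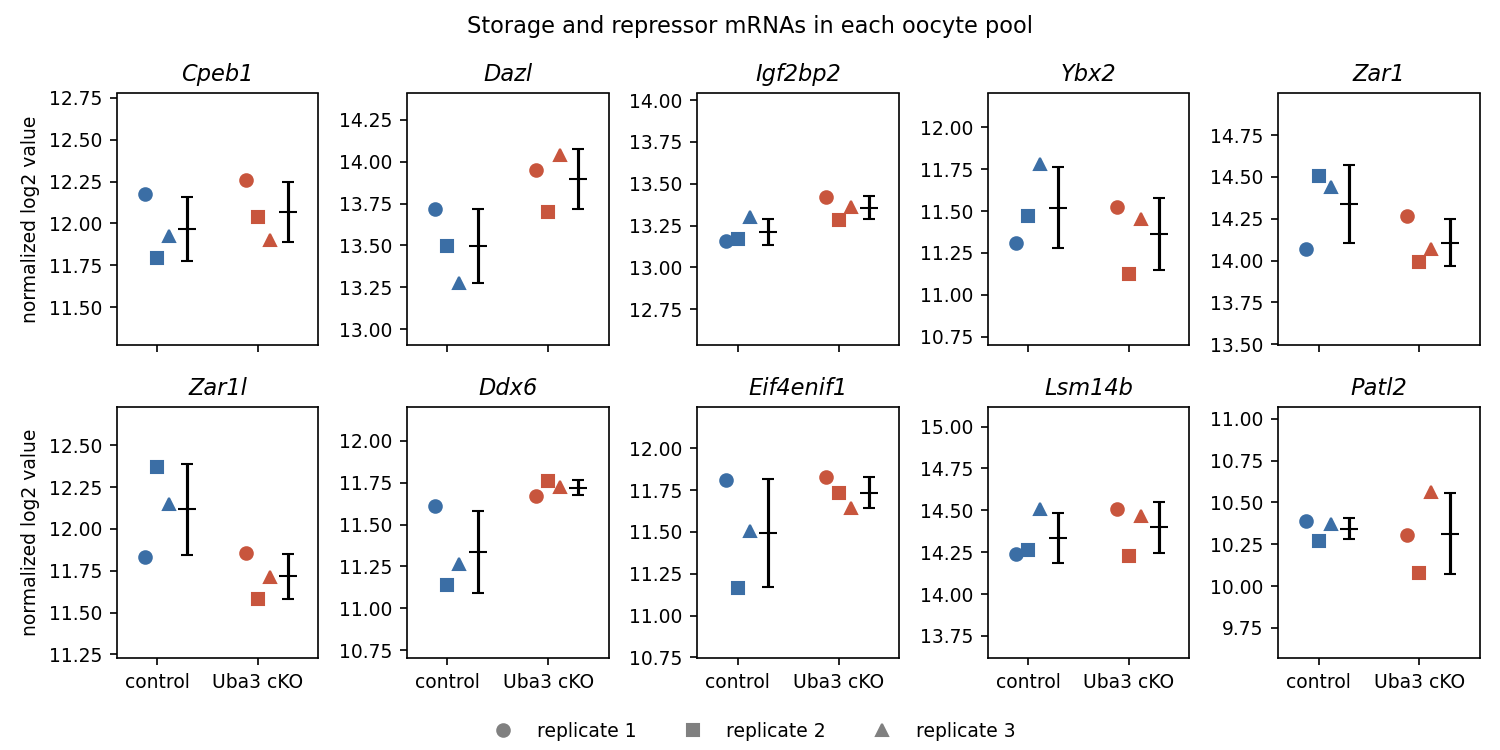
Normalized log2 value (vertical axes, all of the same span) of the 10 mRNAs in 3 control pools (blue) and 3 Uba3 cKO pools (red), with the replicate number as symbol and the mean ± SD in black. Ddx6 is the only panel in which the groups do not overlap, and control pool 1 lies on the Uba3 cKO side of the other controls for Zar1, Zar1l, Ddx6 and Eif4enif1.

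Among the sequence-specific binders, Dazl (ENSMUSG00000010592, chromosome 17) was the member that changed. It stood at 13.72, 13.50 and 13.27 in control pools 1, 2 and 3, and Uba3 cKO pools had 13.95, 13.70 and 14.04. The groups overlapped narrowly, with the highest control just above the lowest Uba3 cKO pool. The mean rose from 13.50 ± 0.22 (SD, n = 3) to 13.90 ± 0.18 (SD, n = 3), a 1.32-fold higher level. The log2 difference was 0.40 (SE 0.11, 95% interval 0.16 to 0.64), with a limma adjusted p of 0.0449. That value is close to the threshold. The call was lost when control pool 2 (adjusted p = 0.108) or 3 (0.211) was left out, and likewise for Uba3 cKO pool 1 (0.146) or 3 (0.187), with differences between 0.29 and 0.40. Across the 6 pools, the kept genes whose values followed Dazl most closely were Hectd2 (Pearson r = 0.991), Gm12689 (0.991) and Ggt1 (0.989). With so few pools, 312 genes had an r over 0.9 with Dazl, so this likeness is only a description.

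Cpeb1 (ENSMUSG00000025586, chromosome 7) stood at 12.17, 11.80 and 11.93 in control and at 12.26, 12.04 and 11.90 in Uba3 cKO. The groups overlapped across most of their range. Its log2 difference was 0.10 (95% interval -0.15 to 0.35), with an adjusted p of 0.652. Single pools moved it widely, to 0.0054 without Uba3 cKO pool 1, 0.016 without control pool 2, 0.18 without Uba3 cKO pool 3 and 0.20 without control pool 1. Its relatives Cpeb2, Cpeb3 and Cpeb4 were not called either, at 0.14, 0.16 and 0.07.

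Igf2bp2 (ENSMUSG00000033581, chromosome 16) had the tightest controls after Patl2, at 13.16, 13.17 and 13.30, against 13.42, 13.28 and 13.36 in Uba3 cKO. Only the lowest Uba3 cKO pool lay below the highest control. The log2 difference was 0.15 (95% interval -0.03 to 0.32), with an adjusted p of 0.306. Igf2bp3, a close relative, had a difference of 0.34 with no overlap between the groups and an adjusted p of 0.0566, and Igf2bp1 was much less abundant, with a control mean of 5.19.

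**Figure D2:**
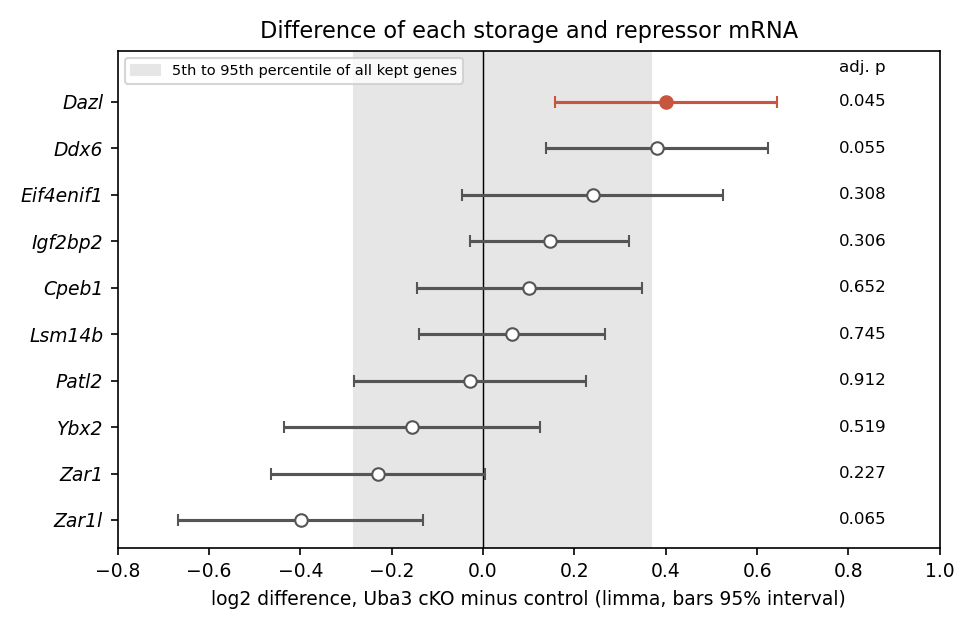
Log2 difference (Uba3 cKO minus control) of each mRNA with its 95% interval from limma, and the adjusted p over all 17450 kept genes at the right. The filled point, Dazl, passed the threshold, and the grey band spans the 5th to 95th percentile of all kept genes (-0.28 to 0.37).

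The mRNAs of the storage proteins had lower means in Uba3 cKO oocytes, and none of the 3 was called. Zar1l (ENSMUSG00000056586, chromosome 5) stood at 11.83, 12.37 and 12.15 in control and at 11.85, 11.58 and 11.71 in Uba3 cKO. The groups overlapped only because control pool 1 lay just below the highest Uba3 cKO pool. The control mean was 12.12 ± 0.27 (SD, n = 3) against 11.72 ± 0.14 (SD, n = 3), a log2 difference of -0.40 (SE 0.12, 95% interval -0.67 to -0.13). The limma adjusted p was 0.0653.

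Zar1 (ENSMUSG00000063935, chromosome 5) followed the same pools. Its values were 14.07, 14.51 and 14.44 in control and 14.27, 13.99 and 14.07 in Uba3 cKO. Control pool 1 lay at the level of the Uba3 cKO pools and below the highest of them. The log2 difference was -0.23 (95% interval -0.47 to 0.0032), with an adjusted p of 0.227. Zar1 and Zar1l are related in sequence, and no source used here states how reads shared by related genes were counted.

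Ybx2 (ENSMUSG00000018554, chromosome 11) stood at 11.31, 11.47 and 11.78 in control and at 11.52, 11.12 and 11.45 in Uba3 cKO. The groups overlapped widely. Its log2 difference was -0.16 (95% interval -0.44 to 0.12), with an adjusted p of 0.519. It was only -0.02 without control pool 3 and -0.03 without Uba3 cKO pool 2, and was -0.26 without control pool 1 and -0.23 without Uba3 cKO pool 1. The related cold-shock genes Ybx1 and Ybx3 had differences of 0.13 and -0.01 and were not called.

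In the DDX6 repressor complex, the helicase gene itself had the largest difference. Ddx6 (ENSMUSG00000032097, chromosome 9) stood at 11.61, 11.14 and 11.26 in control and at 11.67, 11.76 and 11.72 in Uba3 cKO. It was the 1 member whose groups did not overlap, with the knockout higher, where 27.9% of all kept genes do not overlap (15.1% higher and 12.8% lower). The control mean was 11.34 ± 0.24 (SD, n = 3) against 11.72 ± 0.04 (SD, n = 3). The log2 difference of 0.38 (SE 0.11, 95% interval 0.14 to 0.62), or 1.30-fold, had a limma adjusted p of 0.0548, just short of the threshold for a call.

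Eif4enif1 (ENSMUSG00000020454, chromosome 11) ranged most widely among controls, at 11.81, 11.16 and 11.51, and narrowly in Uba3 cKO, at 11.83, 11.73 and 11.64. Control pool 1 lay within the Uba3 cKO values. The log2 difference was 0.24 (95% interval -0.05 to 0.53), with an adjusted p of 0.308. Without control pool 2 it was 0.07.

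Lsm14b and Patl2 had the differences nearest to 0. Lsm14b (ENSMUSG00000039108, chromosome 2), one of the most abundant members, stood at 14.24, 14.27 and 14.51 in control and at 14.51, 14.23 and 14.46 in Uba3 cKO, a log2 difference of 0.06 (95% interval -0.14 to 0.27) that ran from 0.0085 without Uba3 cKO pool 1 to 0.15 without Uba3 cKO pool 2. The Uba3 cKO values lay almost wholly within the control range. Patl2 (ENSMUSG00000027233, chromosome 2) stood at 10.39, 10.27 and 10.37 in control and at 10.30, 10.08 and 10.56 in Uba3 cKO, a log2 difference of -0.03 (95% interval -0.28 to 0.22). Here the Uba3 cKO pools lay on both sides of the controls. Their relatives Lsm14a and Patl1, which are widely expressed, had differences of -0.10 and -0.07 and were not called.

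Across the pools, Zar1 and Zar1l varied together, and Ddx6 and Eif4enif1 varied the other way. Over the 6 pools the Pearson r was 0.955 between Zar1 and Zar1l and 0.866 between Ddx6 and Eif4enif1. It was -0.976 between Zar1l and Ddx6 and -0.922 between Zar1 and Ddx6. The pattern also held around the group means, where r was 0.961 for Zar1 with Zar1l and -0.947 for Zar1l with Ddx6. It was weaker there for Eif4enif1, at -0.652 with Zar1 and -0.786 with Zar1l. Among the Uba3 cKO pools alone, Eif4enif1 was highest in pool 1, as Zar1 and Zar1l were. Cpeb1 followed Eif4enif1 (0.872 over the 6 pools). Ybx2, Lsm14b and Igf2bp2 followed each other around the group means (0.966 to 0.982), but less closely over the 6 pools (0.266 to 0.791). These are 6 shared libraries and 45 pairs, so the values are descriptions.

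**Figure D3:**
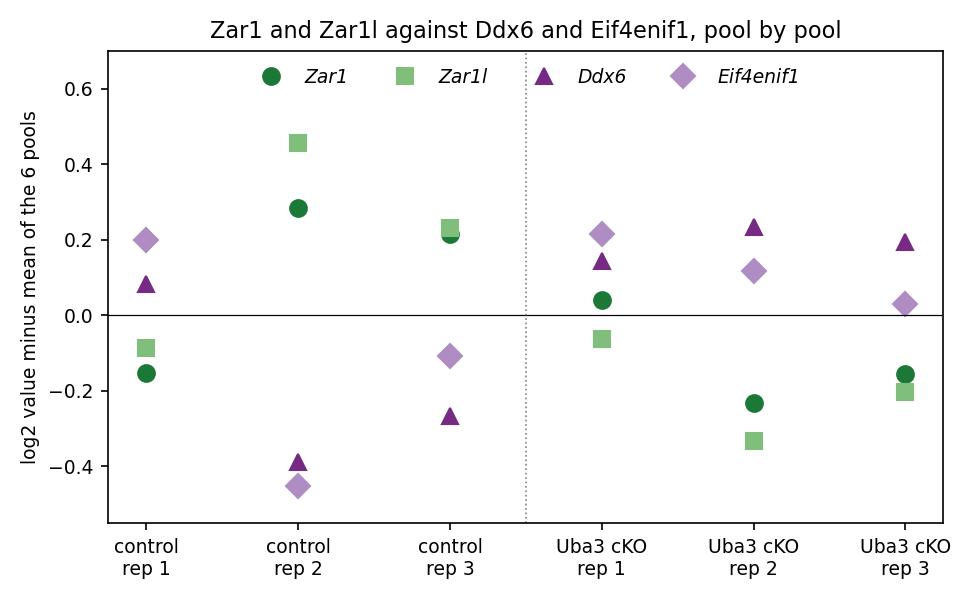
Log2 value of Zar1, Zar1l, Ddx6 and Eif4enif1 in each of the 6 pools, minus the mean of that gene over the pools (vertical axis), with controls left of the dotted line. In control pools 2 and 3 Zar1 and Zar1l lie above 0 and Ddx6 and Eif4enif1 below, while in control pool 1 the order is the opposite.

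Control pool 1 stood closest to the Uba3 cKO pools. For 7 of the 10 members its value lay nearer to the Uba3 cKO mean than to the mean of the other 2 controls, against 1 and 2 members for control pools 2 and 3. Among the Uba3 cKO pools, 2, 4 and 3 members lay nearer to the control mean. Without control pool 1, 5 members were called, Dazl (0.51), Ddx6 (0.52) and Eif4enif1 (0.40) higher and Zar1 (-0.36) and Zar1l (-0.54) lower, with limma adjusted p between 0.00409 and 0.0388. In that comparison 9.38% of all kept genes were called. Leaving out control pool 2 or 3 or Uba3 cKO pool 1 or 3 left no called member in limma. Each time 3 or 4 of the 10 had an unadjusted p under 0.05. The share of all genes with such a p was computed only in the main test, at 22.8%. With those pools left out, the share of all genes called was 4.47%, 3.54%, 3.9% and 4.06%. It was 7.35% when Uba3 cKO pool 2 was left out and Dazl alone was called. Over all genes the share was 11.4% with a stricter filter, 7.79% with quantile normalization, 7.8% with equal library medians, 7.19% without an intensity trend and 8.74% with robust estimation. It was 13.2% with library weights, 7.21% with a replicate block and 12.5% at a threshold of 0.1, and the members' counts under these settings are given in the closing section. Control pool 1 also had the lowest summed oocyte, granulosa and theca marker levels of the 3 controls (18.74, 14.15 and 11.83), the lowest endothelial level (11.85) and the highest blood and immune level (9.46), and the part of these in its values was not tested.

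**Figure D4:**
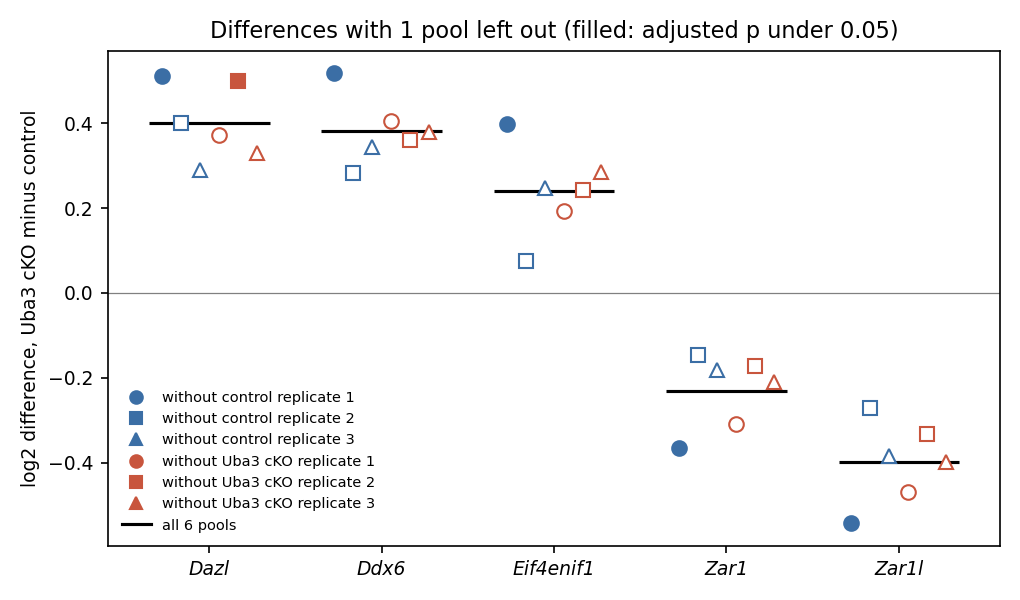
Log2 difference (Uba3 cKO minus control) of 5 mRNAs with all 6 pools (black line) and with each pool left out in turn (symbols), filled where the limma adjusted p was under 0.05. Leaving out control pool 1 gave the difference farthest from 0 for each of the 5, and Eif4enif1 was at 0.07 without control pool 2.

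Zar1 and Zar1l are a related pair with like profiles over the pools, so the 250 bases before their annotated starts are shown from the RefSeq promoter table (GRCm38.p6), which held 9 of the 10 members. Capitals mark E-boxes (CANNTG), which bHLH factors such as FIGLA bind, and homeobox motifs. The latter were TAATTG, which reads as CAATTA on the opposite strand, together with the palindrome TAATTA, so both strands were covered.
Zar1, chr5:72581085-72581334, minus strand: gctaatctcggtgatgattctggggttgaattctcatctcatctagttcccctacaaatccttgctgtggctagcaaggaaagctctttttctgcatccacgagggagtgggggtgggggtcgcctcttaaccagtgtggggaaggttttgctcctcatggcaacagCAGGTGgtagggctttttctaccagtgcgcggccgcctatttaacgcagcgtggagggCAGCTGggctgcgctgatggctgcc
Zar1l, chr5:150518160-150518409, minus strand: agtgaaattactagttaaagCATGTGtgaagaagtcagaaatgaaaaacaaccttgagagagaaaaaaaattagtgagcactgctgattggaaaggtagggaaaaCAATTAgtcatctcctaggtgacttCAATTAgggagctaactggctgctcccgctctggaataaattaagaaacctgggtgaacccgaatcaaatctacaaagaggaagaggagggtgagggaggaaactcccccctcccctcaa

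Zar1 held 2 E-boxes and no homeobox motif, and Zar1l held 1 E-box and 2 CAATTA motifs. Of 32851 promoters in the table, 66.2% held an E-box in this window, 7.17% TAATTG or CAATTA, and 4.84% TAATTA. The GC content was 55.6% for Zar1 and 42.8% for Zar1l. A match is no evidence of binding.

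The differences of the members followed the length of their transcripts. The 3 shortest, Zar1l (895 bases), Zar1 (1429 bases) and Ybx2 (1673 bases), had the 3 lowest differences, while Ddx6, the longest at 6065 bases, was among the highest. The value of Ybx2 rested on single pools, as given above. Across the 10 genes Pearson's r with log2 length was 0.917, and with GC content it was -0.764. Dazl had the lowest GC content (37.0%) and Ybx2 and Zar1 the highest (63.4% and 62.1%). Genes are not independent replicates, and these 10 share the same 6 libraries. Over 17188 kept genes the same correlations were 0.102 and -0.179. The median difference of all kept genes was 0.02 at a GC content under 40% and -0.06 at 60% or more. After correcting each library for length and GC content, the differences were 0.36 for Dazl, 0.32 for Ddx6, -0.37 for Zar1l, -0.14 for Zar1 and -0.06 for Ybx2. Dazl was then not called (limma adjusted p = 0.0536), and no member was, while 8.37% of all genes were called (7.02% with a replicate block as well). An unadjusted p under 0.05 was found for 3 members, and that share over all genes was not computed after the correction.

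**Figure D5:**
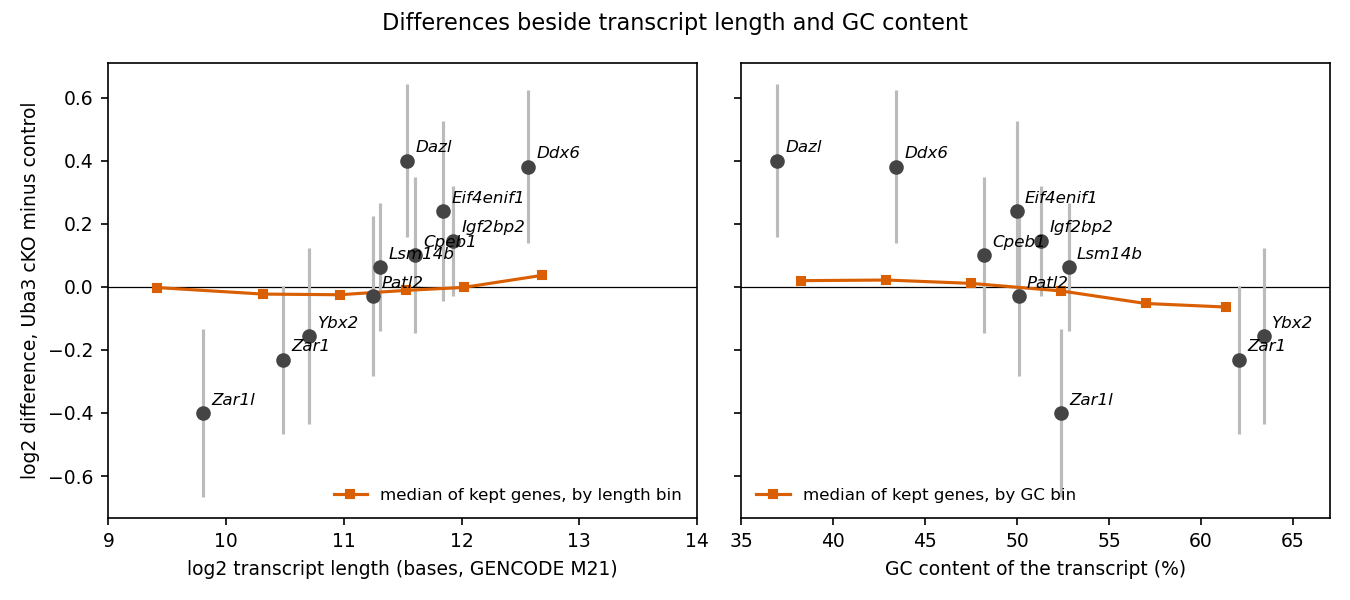
Log2 difference (Uba3 cKO minus control, bars 95% interval) of the 10 mRNAs against log2 transcript length (left) and GC content (right), with the median of kept genes in bins in orange. The differences are higher for longer transcripts (r = 0.917) and lower for GC-rich ones (r = -0.764), and the orange medians stay between -0.06 and 0.04.

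Levels were compared between members per kilobase of the same transcripts. In control oocytes Zar1 was highest, at 13.82 ± 0.23 (SD, n = 3) on the log2 scale of normalized value per kilobase. Lsm14b followed at 13.00 ± 0.15, Zar1l at 12.28 ± 0.27, Dazl at 11.92 ± 0.22, Igf2bp2 at 11.25 ± 0.08 and Ybx2 at 10.78 ± 0.24. Cpeb1 at 10.33 ± 0.19, Eif4enif1 at 9.62 ± 0.32, Patl2 at 9.06 ± 0.06 and Ddx6 at 8.74 ± 0.24 were lower. The control pools of neighbours overlapped for Zar1l with Dazl and for Patl2 with Ddx6. The level of Zar1l is uncertain, since its annotated transcript has almost no 3′ untranslated region and a longer one would lower the value. In Uba3 cKO oocytes both of these pairs stood in the opposite order, Dazl at 12.32 ± 0.18 above Zar1l at 11.88 ± 0.14 with no overlap, and Ddx6 at 9.12 ± 0.04 above Patl2 at 9.03 ± 0.24 with overlap. Ybx2 and Cpeb1 also overlapped there. Before the correction for length, the control means stood between the 77.5th percentile of kept genes for Patl2 and the 99.4th for Zar1.

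The counts for other genes of the same pathways stand beside the 8.14% of all kept genes that were called, and nothing is read from them as particular to a list. Of 19 genes of cytoplasmic polyadenylation and poly(A) binding, 1 rose, 2 fell and 16 were not called, with a median log2 difference of 0.02. In limma 6 of the 19 had an unadjusted p under 0.05, against 22.8% of all kept genes. Cpsf2, a subunit of the factor that recognizes the polyadenylation signal, stood at 11.91, 11.97 and 11.96 in control and at 12.34, 12.46 and 12.60 in Uba3 cKO, a rise of 0.52 (SE 0.09, adjusted p = 0.00325). The groups were far apart, and Cpsf2 was called in all the alternatives run. Tent2, a cytoplasmic poly(A) polymerase also called GLD2, fell by 0.40, and Pabpn1l, an oocyte poly(A) binding protein, fell by 0.44. Tent2 lost its call when Uba3 cKO pool 1 or 3 was left out (adjusted p up to 0.0614), and Pabpn1l when control pool 2 or 3 or Uba3 cKO pool 2 or 3 was (up to 0.111). Without Uba3 cKO pool 3 1 gene of the list was called, where 4.06% of all genes were.

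Of 13 kept genes for cap-binding and eIF4E-binding repressors, none was called in limma, 10 differences were above 0 and the median was 0.11. Of these, 3 had an unadjusted p under 0.05, against 22.8% of all kept genes. The members with the highest mean levels were Eif4e1b, an oocyte form of the cap-binding protein, at -0.12 (adjusted p = 0.389), and Eif4g2, a scaffold related to eIF4G, at 0.11 (adjusted p = 0.473). Without control pool 1, 1 gene of this list was called, where 9.38% of all genes were. Among 38 other RNA-granule and 3′ untranslated region binding repressors, 2 rose, none fell and 36 were not called, with a median of 0.04. In limma 7 of the 38 had an unadjusted p under 0.05. Stau1, a double-stranded RNA-binding protein, rose by 0.44 (adjusted p = 0.0381), and lost its call without any single pool other than control pool 1 (adjusted p up to 0.14), with 0.28 when control pool 2 was left out. Without control pool 2 or Uba3 cKO pool 1 or 3, where 4.47%, 3.9% and 4.06% of all genes were called, no gene of this list was in limma. Then 5, 4 and 4 of the 38 had an unadjusted p under 0.05, and that share over all genes was not computed there. Without control pool 3 or Uba3 cKO pool 2, where 3.54% and 7.35% of all genes were called, 1 gene of the list was called.

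Of 27 mRNAs listed here as dormant in the arrested oocyte and translated during maturation, 3 rose, 1 fell and 23 were not called, with a median of -0.06. An unadjusted p under 0.05 in limma was found for 12 of the 27, against 22.8% of all kept genes. Whether each of the 27 is dormant in these oocytes was not tested. Plat, the tissue plasminogen activator and a classical CPEB1 target, stood at 16.26, 16.60 and 16.43 in control and at 16.10, 15.75 and 15.94 in Uba3 cKO. All Uba3 cKO pools lay below all controls. It fell by 0.50 (SE 0.10, adjusted p = 0.00579) and was called in all the alternatives run, with -0.33 under quantile normalization. Sycp3, a synaptonemal complex gene and a DAZL target, stood at 9.82, 9.66 and 9.63 in control and at 10.14, 10.24 and 10.16 in Uba3 cKO. It rose by 0.48 (SE 0.10, adjusted p = 0.00836), and its call ended only without control pool 3 (adjusted p = 0.0552). The other members that rose were Ccne2 (0.50) and Dcp2 (0.32), and Dcp2 lost its call when control pool 3 or Uba3 cKO pool 1 or 3 was left out (adjusted p up to 0.13) and with the length and GC correction (0.0804). Without control pool 1, 7 of the 27 were called, 3 higher and 4 lower, where 9.38% of all genes were called. Without control pool 3, 2 of them were called, where 3.54% of all genes were.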

How the data were processed

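RNA of 6 pools of mouse oocytes, 3 per group, was sequenced from Illumina TruSeq libraries, per the labels' protocols. Tools listed in the submitters' processing notes are fastp, STAR, featureCounts and DESeq2, with the build GRCm39 and no versions. How strand and multimapping reads were handled is not given in the sources used here. The authors deposited 1 table of normalized log2 values, from 0.0363 to 18.01. The table names no transform. Little spread at low levels has the shape of a regularized logarithm, which would shrink differences of low genes. Symbols, lengths and transcripts came from GENCODE M21 (GRCm38), which paired 27660 of the IDs with a symbol, and promoters from RefSeq.

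Genes were kept where the back-transformed linear value was 10 or more in at least 3 libraries. The test was limma (version 3.58.1, R version 4.3.3), fitted on all kept genes with its intensity trend and with Benjamini-Hochberg adjustment over all kept genes, and the script was tested on simulated data. The members and lists were chosen with earlier results of these data known. Named are all members, Uba3, called list members (up to 4 a list, or the 2 with the highest mean where none was called), near relatives of members and the 3 genes most like a called member. The cell type markers that are named, among them Bmp15, Gdf9 and Inha, were picked after their values were seen. Alternatives covered pseudocount, filter, scaling, variance model, library weights, replicate block, threshold and leaving out each library. The length and GC correction was added after seeing the data. The labels do not say that same-numbered pools are pairs, so they were not treated as pairs. Deviations of same-numbered pools had r of -0.09, -0.20 and -0.05 for numbers 1, 2 and 3. Unlike-numbered pools had r from -0.20 to 0.28, so these values cannot decide whether the pools were paired. The values of 1 called list member and 1 sequence are not reported here.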

Additional observations from a re-analysis of the deposited data

How the results depend on the processing

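The count of called members moved with the settings, around the main count of 1. It was 2 with the stricter filter (a linear value of 100 or more), with quantile normalization and with robust estimation, 3 with library weights and 3 at a threshold of 0.1. It was 0 with library medians made equal, 0 without the intensity trend and 0 with the length and GC correction. In these, limma gave 4, 3 and 3 members an unadjusted p under 0.05, a share not computed there over all genes. The count of called members was between 0 and 5 when each library was left out. With the replicate block it was 1, also together with the length and GC correction, and Dazl had an adjusted p of 0.0258 (0.0490 with both). Over all genes the replicate block gave 1258 calls against 1421, library weights 2298, the threshold of 0.1 2176, and leaving out each library 618 to 1637. The log2 difference of Patl2, the member that changed sign, ran from -0.15 to 0.090 when each library was left out, and was above 0 only without Uba3 cKO replicate 2. The other 9 members kept their direction in all 19 alternatives. However, the filter, variance model, replicate block and threshold settings left each log2 difference unchanged, so they could not test direction. Without Uba3 cKO replicate 1, Cpeb1 was at only 0.0054 and Lsm14b at 0.0085. The call of Dcp2 ended with the replicate block (adjusted p = 0.0548). The calls of Pabpn1l and Stau1 ended without the intensity trend (0.0583 and 0.0819) and that of Stau1 with quantile normalization (0.0551). The cause was not tested. No library depth is known, so no counting interval could be given.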

Other observations

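The log2 ratio of Zar1 to Zar1l within a pool was chosen after the values were seen. Control pools 1, 2 and 3 had 2.24, 2.13 and 2.29, while Uba3 cKO pools had 2.41, 2.41 and 2.36, so the groups did not overlap, including control pool 1. This was not particular to the pair. The log2 ratio of Zar1l to Ddx6 did not overlap either, with 0.22 in control pool 1 above 0.18 in Uba3 cKO pool 1. Nor did that of Dazl to Zar1l, with 1.89 in control pool 1 below 2.10 in Uba3 cKO pool 1. How many of the 45 pairs behave so was not computed. The pair was picked from 45, so the lack of overlap is a description only.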
